A study of Mus musculus with 7 samples.

Results

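The genes described here encode the cytosolic factors that start and elongate protein synthesis. Relatives, inhibitors, partners and modifying enzymes that share their symbols are included, and all are called factor genes here. They were taken by symbol as every singly annotated mouse gene beginning with Eif1 to Eif6, Eef1 or Eef2, without the eIF2 kinases (Eif2ak genes) and the eEF2 kinase Eef2k. This gave 62 genes among the 24990 features of the deposited tables, in 7 libraries from mouse embryoid bodies, floating clumps in which embryonic stem cells begin to specialise. The RefSeq gene table listed 81 entries under these symbols. Of the rest, Eif3j1 and Eif3j2 shared 1 merged row and were left out, and 17 had no row of their own, 14 of them pseudogenes, so reads from near-identical copies of Eef1a1, Eef2, Eif1, Eif2s3x, Eif3e, Eif4a and Eif5a may be counted with the parent gene.

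The libraries were 3′ RNA-seq of polyadenylated RNA from the R1 line on day 4, after feeder fibroblasts had been depleted on gelatin and serum medium without Lif had been given. The cells carried changes at Meteor, the locus of a long non-coding RNA, whose control of the streak regulator Eomes is the study's subject. By title, 1 library came from cells with an inverted Meteor promoter (pInv), 2 from cells without that promoter (pKO1 and pKO2), 2 from wild-type cells (WT1, WT2), 1 from a CRISPR knockdown of Meteor (KD; dCas9 in its label, Cas9 in the series text) and 1 from an empty-vector control (Ctrl). Whether a modified line was 1 clone, and whether replicate libraries are separate cultures, is not stated in the labels, so the spread behind the p-values may be technical. The genotype field contradicts the titles of 5 libraries: it gives promoter knockout for WT1 and WT2, promoter inversion for pKO1, and wild type for pKO2 and pInv. Titles define the groups used here, and a direction between groups holds only if they are right.

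Levels are in CPM, expected counts scaled by TMM-corrected library size. Totals ran from 1898350 expected counts (WT2) to 2564478 (WT1), and a count of 0 allowed up to 1.12 to 1.79 CPM, counting error only. WT2 stood apart: the summed CPM of 7 primitive streak and mesoderm markers came to 459 in WT2, against 1018 to 2305 for the rest, and 5 of the 6 such markers at 20 CPM or more were at least 2-fold low there. Summed pluripotency markers (7 genes) were at 2425 CPM in WT2 and 1208 to 1953 elsewhere, but Pou5f1 made up 2179 of the WT2 sum. Zfp42 (23.9 CPM) and Dppa4 (58.6 CPM) were also highest in WT2. Nanog (7.77 CPM) and Fgf5 (35.9 CPM) were lowest in WT2, and Sox2 (101 CPM) and Utf1 (18.5 CPM) were neither. The 6 macrophage markers summed to 258 CPM in KD and 1.20 to 4.22 elsewhere. Of those, Lyz2 was at 174 CPM in KD, Csf1r at 12.4 in KD and 0 in all others, and Fcer1g at 0 in KD. Feeder fibroblast markers summed to 2.02 to 7.17 CPM. Meteor itself was not matched to a row and is not analysed here, and Eomes ran from 311 CPM in WT2 to 457 in WT1. In bulk RNA, fewer cells of a type and less RNA per cell cannot be told apart.

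As background, initiation begins when eIF2 carries the initiator tRNA to the small ribosomal subunit together with eIF1, eIF1A, eIF3 and eIF5. The cap complex then brings the mRNA, through the cap-binding protein eIF4E, the scaffold eIF4G and the RNA helicase eIF4A, and eIF5B joins the large subunit. In elongation eEF1A delivers aminoacyl-tRNA, eEF1B recharges it with GTP, and eEF2 moves the ribosome along. Many of these mRNAs begin with a terminal oligopyrimidine tract and are translated under control of mTORC1, a kinase complex that also releases eIF4E from its inhibitors, the 4E-BPs. Embryonic stem cells are known for low rates of protein synthesis that increase as they differentiate.

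Of the 62 genes, 56 passed the filter on low counts and 46 averaged 20 CPM or more. The 6 that did not pass were Eef1a2, Eif4e1b, Eif4a3l1, Eif5a2, Eef1akmt2 and Eef1akmt3. Eef1a2, the eEF1A of muscle and neurons, had at most 1.27 CPM in a library, and Eif4e1b, the eIF4E of oocytes, had at most 0.408. On the authors' TPM, which divides by length, Eef1a1 was the highest of the set with a median of 5008 TPM over the 7 libraries. Eef2 followed at 3233, then Eif2s2 at 2273, Eif4a1 at 1940 and Eef1b2 at 1885 TPM. Eef1a1 ran from 834 to 6580 TPM, a range that overlapped those of the other 4, so its place is not the same in every library. Eef2 (2853 to 4540 TPM) lay above the ranges of Eif4a1 (394 to 2122) and Eef1b2 (1232 to 2232). By mean CPM, not divided by length, Eef1a1 (3837), Eef2 (2754) and Eif2s2 (2657) again came first. Eef1b2 (1802), Eif4g2 (1292), Eef1g (1110) and Eif3a (952) followed, ahead of Eif4a1 (705). Whether dividing by length suits 3′ reads was not tested.

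Libraries of the same group differed widely in some of these genes. In WT2, 10 of the 46 genes at 20 CPM or more (21.7%) were low, meaning at most 0.5 of the median over the 6 other libraries, where 9.76% of all 4664 features at that level were. They were Eef1a1, Eif1, Eif3e, Eif3i, Eif3m, Eif4a1, Eif4ebp2, Eif4g2, Eif4h and Eif5a. In pKO2, 3 of the 46 (6.52%) were as low, namely Eef1a1, Eif4a1 and Eif4ebp2, where 2.27% of features were. These 3 were low in both libraries, as were 1.95% of features. The 10 genes low in WT2 all lay under that median in pKO2 as well, the least so Eif3e, at 0.984 of it. The share of all features that did so was not counted. In pInv, pKO1, WT1, KD and Ctrl no gene of the 46 was 2-fold low, against backgrounds of 0.665%, 0.257%, 0.257%, 0.772% and 0.536%. None was 2-fold high in any library, against backgrounds of 0.515% in pInv, 0.15% in pKO1, 0.386% in pKO2, 0.236% in WT1, 2.81% in WT2, 1.29% in KD and 0.0643% in Ctrl. Since WT2 and pKO2 both carry the number 2, replicate number moves with these values, and the low streak markers move with those of WT2. In pKO2 the streak and mesoderm markers summed to 1920 CPM. The part of replicate number or of these markers in the low values was not tested.

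**Figure D1:**
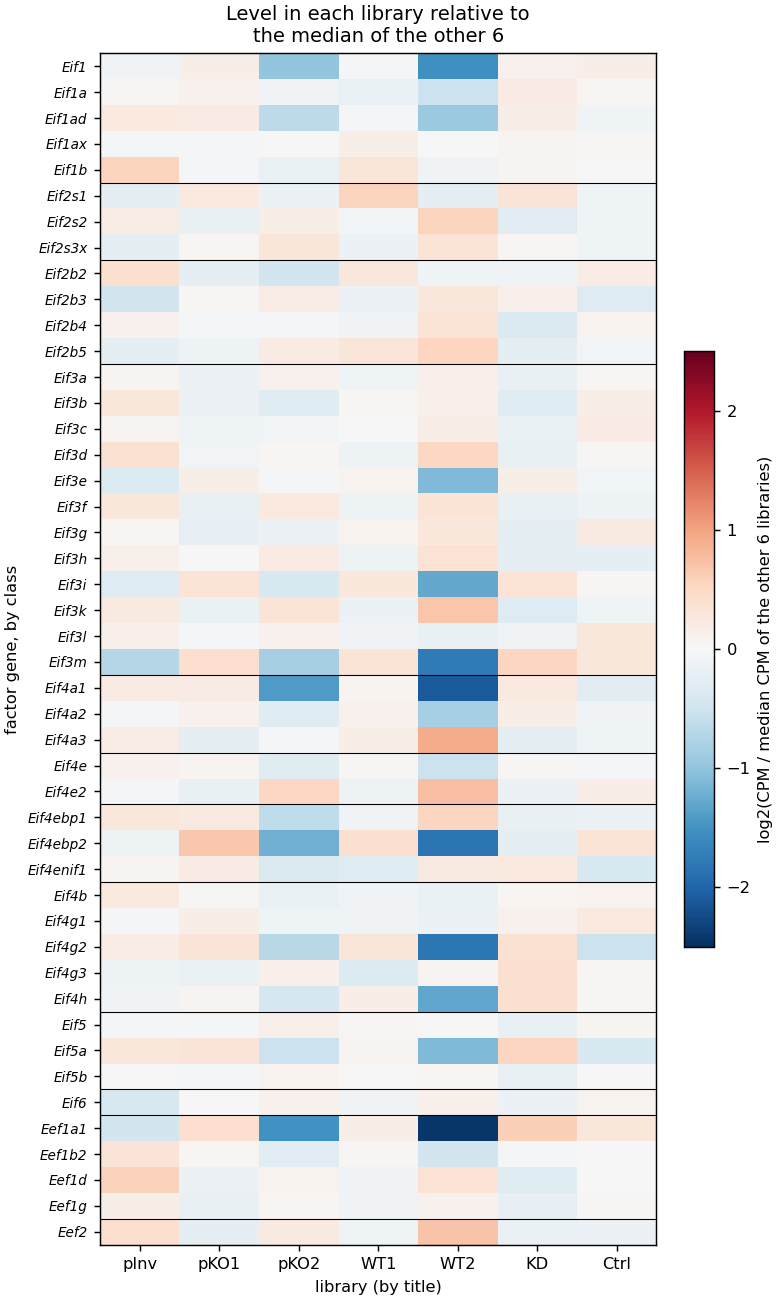
Each cell is the log2 ratio of a gene's CPM in 1 library to the median of the other 6 libraries, for the 46 factor genes averaging at least 20 CPM, ordered by class (lines part the classes) and by library title. WT2 holds the lowest value (−2.42, Eef1a1) and pKO2 the next column of low values (lowest −1.52), while Eef2, Eif4a3 and Eif3k are high in WT2.

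Elongation factors differed among themselves in this pattern. The Eef1a1 gene (NCBI gene 13627), which encodes the delivery factor eEF1A, had 3437 CPM in pInv, 5346 and 1655 in pKO, 4598 and 883 in WT, 6061 in KD and 4874 in Ctrl. The libraries pKO2 and WT2 stood far below the other 5, and pKO and WT overlapped. The WT2 to WT1 ratio of Eef1a1 was 0.192, with an exact binomial 95% counting interval from 0.182 to 0.203, and the pKO2 to pKO1 ratio was 0.310 (0.299 to 0.321). Intervals here and below cover counting error only. Eef2, which encodes the translocase, had 3220 CPM in pInv, 2219 and 2812 in pKO, 2417 and 3912 in WT, 2323 in KD and 2373 in Ctrl. WT2 was the highest library there, with a WT2 to WT1 ratio of 1.62 (1.56 to 1.68).

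No subunit gene of eEF1B, the exchange complex of eEF1A, was 2-fold low in WT2 or pKO2. Eef1b2, its catalytic alpha subunit, had 2290 CPM in pInv, 1885 and 1541 in pKO, 1882 and 1355 in WT, 1804 in KD and 1859 in Ctrl. WT2 was lowest there too, but at 0.725 of the median of the others. Eef1g, the structural gamma subunit, lay between 986 and 1223 CPM, a ratio of highest to lowest library of 1.24. Eef1d, the catalytic delta subunit, ran from 129 CPM in KD to 226 in pInv, with 196 in WT2. Eef1e1, a scaffold of the tRNA synthetase complex, was near the detection limit at 3.54 to 7.46 CPM. Eef2kmt, a lysine methyltransferase of eEF2, had 9.30 CPM in pInv and 14.9 to 19.4 in the other 6 libraries. Of the methyltransferases of eEF1A, Eef1akmt1 ran from 9.56 CPM in WT2 to 27.6 in pKO1, and Eef1aknmt from 13.6 to 19.9.

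The RefSeq promoters of a low and a high gene of 2 families are shown to compare the starts of genes that parted in WT2. Each is the 80 bases before the listed start, 5′ to 3′ on the gene's strand, in GRCm38.p6: chr9:78481725-78481804 (minus) and chr10:81176551-81176630 (plus) for the elongation factors, chr11:69672424-69672503 (minus) and chr11:119300044-119300123 (minus) for the helicases. Capitals mark, in either orientation, TATAAA (the core promoter element), GGGCGG (the Sp1 element) or the CCAAT element, and none of these contains another.
Eef1a1: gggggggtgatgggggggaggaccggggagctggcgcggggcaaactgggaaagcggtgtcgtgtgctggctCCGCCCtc
Eef2: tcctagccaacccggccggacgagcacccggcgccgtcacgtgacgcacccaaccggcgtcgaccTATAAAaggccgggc
Eif4a1: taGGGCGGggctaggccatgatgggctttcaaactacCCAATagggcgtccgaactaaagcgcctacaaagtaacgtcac
Eif4a3: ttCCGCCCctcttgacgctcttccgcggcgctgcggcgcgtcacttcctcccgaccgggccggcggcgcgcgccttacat
Of the 46 genes, 36 had a promoter entry, 7 of them among the 10 low in WT2. In the 250 bases before the start, on either strand, TATAAA stood in 0 of the 7 and 4 of the other 29, and in 5.9% of the 3660 promoters of features at 20 CPM or more. The GC box GGGCGG stood in 6 of 7 and 18 of 29 (63.7% of promoters at that level), CCAAT in 2 of 7 and 7 of 29 (37.2%), and the ETS core CCGGAAG in 2 of 7 and 7 of 29 (17.5%). These are letter matches before the listed starts only. An element past a listed start, or spelled otherwise, was not counted, so a missing match does not show a promoter without that element. Neither group holds a motif that all its promoters share and the other lacks.

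The genes of the eIF4 helicases and scaffolds also differed in which library was low. Eif4a1, the main eIF4A helicase, had 924 CPM in pInv, 925 and 333 in pKO, 865 and 207 in WT, 947 in KD and 733 in Ctrl. Again pKO2 and WT2 were the 2 lowest libraries, WT2 at 0.240 of WT1 (interval 0.214 to 0.269) and pKO2 at 0.360 of pKO1 (0.332 to 0.391). Its paralog Eif4a2 had 46.5 CPM in pInv, 49.5 and 38.8 in pKO, 49.2 and 26.9 in WT, 51.4 in KD and 45 in Ctrl, lowest in the same 2 libraries by less. Eif4a3, the helicase of the exon junction complex rather than of initiation, had 484 CPM in pInv, 381 and 434 in pKO, 473 and 817 in WT, 385 in KD and 420 in Ctrl. It was highest in WT2, at 1.91 times the median of the others.

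Eif4g2, also called DAP5, encodes an eIF4G relative that does not bind eIF4E and that mouse embryonic stem cells need to differentiate. It had 1543 CPM in pInv, 1653 and 975 in pKO, 1618 and 449 in WT, 1712 in KD and 1092 in Ctrl. WT2 was lowest, and Ctrl and pKO2 lay together between WT2 and the other 4. Eif4g1, the scaffold of the cap complex, showed no such low library, at 399 to 503 CPM. Eif4g3 ran from 21.6 to 34.5 CPM. Eif4h and Eif4b encode cofactors of eIF4A: Eif4h was at 40.0 CPM in WT2 and 73.5 to 125 elsewhere, and Eif4b at 271 to 350 CPM in all 7.

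Of the cap-binding proteins, Eif4e had 95.5 CPM in pInv, 92.3 and 73.5 in pKO, 90.3 and 62.2 in WT, 90 in KD and 86.9 in Ctrl, with pKO2 and WT2 lowest. Eif4e2, a repressive cap-binding relative, was highest in the same 2 libraries, with 172 CPM in pKO2 and 202 in WT2 against 114 to 135 in the other 5. Eif4e3, another cap-binding gene, was at 7.08 to 14.2 CPM. The 4E-BP genes, inhibitors of eIF4E, differed in which library was low. Eif4ebp2 had 71.8 CPM in pInv, 112 and 35.1 in pKO, 93.3 and 22.7 in WT, 68.9 in KD and 89 in Ctrl, a 4.94-fold span with pKO2 and WT2 lowest. Eif4ebp1 was lowest in pKO2, at 35.5 CPM, and highest in WT2, at 72.9. Eif4ebp3 stood at 5.71 to 12.7 CPM, and Eif4enif1, the nuclear importer of eIF4E, at 54.6 to 75.3.

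**Figure D2:**
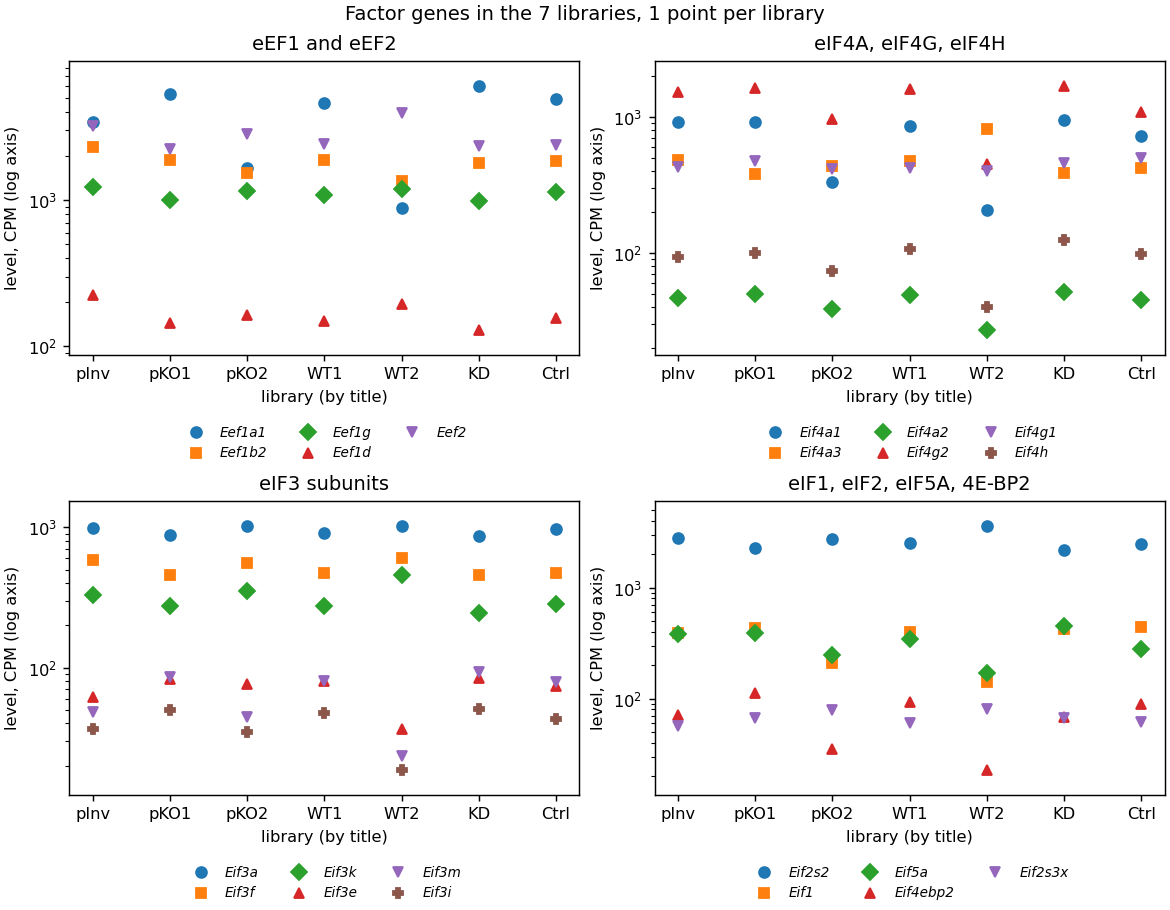
Points are CPM on a log axis in each of the 7 libraries, ordered by title, for members of 4 groups of factors. Eef1a1 is at 1655 CPM in pKO2 and 883 in WT2 while Eef1g lies at 986 to 1223 throughout, and Eif3m, Eif3i and Eif3e are lowest in WT2 while Eif3a and Eif3f are highest there.

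eIF3 is the largest initiation factor, built of many different subunits. Of its 12 genes at 20 CPM or more, 3 were 2-fold low in WT2. Eif3m had 48.2 CPM in pInv, 85.1 and 44.5 in pKO, 80.2 and 23.3 in WT, 92.3 in KD and 78.4 in Ctrl. Its ratio to the median of the others was 0.608 in pInv, 0.562 in pKO2 and lowest in WT2. Eif3i was at 18.5 CPM in WT2 and 34.7 to 50.5 elsewhere, and Eif3e at 36.5 and 61.3 to 83.6. The other 9 were Eif3a, b, c, d, f, g, h, k and l, whose ratios of highest to lowest library ran from 1.19 (Eif3a) to 1.85 (Eif3k). Eif3a, the scaffold subunit, had 991 CPM in pInv, 885 and 1018 in pKO, 911 and 1029 in WT, 864 in KD and 968 in Ctrl. Eif3k was highest in WT2 at 454 CPM, against 245 to 353 elsewhere.

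Start-site selection genes showed 1 strongly variable member. Eif1, which guards the choice of the start codon, had 389 CPM in pInv, 435 and 208 in pKO, 401 and 142 in WT, 428 in KD and 439 in Ctrl. Its near relative Eif1b stood at 71.9 to 116 CPM, highest in pInv. The X-linked Eif1ax varied least of all 46 genes, at 134 to 149 CPM, while the autosomal Eif1a was at 55.6 in WT2 and 71.6 to 90.5 elsewhere. Eif1ad, a relative of eIF1A, was at 27.0 CPM in pKO2 and 22.1 in WT2, against 38.9 to 46.9 in the other 5.

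No eIF2 subunit gene at 20 CPM or more was 2-fold low in a library. Eif2s2, the beta subunit, had 2819 CPM in pInv, 2296 and 2750 in pKO, 2495 and 3613 in WT, 2178 in KD and 2447 in Ctrl. Eif2s1, the alpha subunit, ran from 29.3 to 46.6 CPM and Eif2s3x, the X-linked gamma subunit, from 57.0 to 81.3. On the authors' TPM, per length, the median levels were 2273 for Eif2s2, 24.65 for Eif2s1 and 47.0 for Eif2s3x. The 3 proteins form a complex in equal parts, but these are RNA levels and protein was not measured. Whether reads of near-identical copies are counted with Eif2s2 was not tested. The Y-linked Eif2s3y had 1.69 CPM in pInv, 7.61 and 4.9 in pKO, 5.6 and 3.59 in WT, 6.43 in KD and 8.59 in Ctrl. These levels are near the detection limit, and pInv was lowest. Of eIF2B, the exchange factor of eIF2, Eif2b2 to Eif2b5 spanned 1.56 to 1.70 between highest and lowest library, and Eif2b1 was near the limit at 0.598 to 4.76 CPM. Eif2a and Eif2d, alternative carriers of initiator tRNA, were at 7.77 to 18.3 and 5.49 to 11.9 CPM.

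Of the late factors, Eif5a, the elongation factor that carries hypusine, had 382 CPM in pInv, 392 and 250 in pKO, 345 and 170 in WT, 453 in KD and 280 in Ctrl. Eif5 (248 to 305 CPM), the activator of the eIF2 GTPase, and Eif5b (574 to 696), which joins the subunits, were even across libraries. Eif6, which holds the large subunit apart until it is mature, ran from 41.8 CPM in pInv to 58.0 in WT2. Over all 46 genes, 16 spanned less than 1.5-fold between highest and lowest library and 13 spanned 2-fold or more. WT2 was the lowest library for 19 of the 46 and the highest for 16. The shares of all features for these counts were not taken. WT2 also varied most over all features at 20 CPM or more. There the log2 ratios to the median of the other libraries had an SD of 0.72 in WT2 and 0.27 to 0.41 elsewhere. Over the 46 genes that SD was 0.84 in WT2.

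The genes whose log2 CPM followed that of Eef1a1 most closely over the 7 libraries, among 4618 other features at 20 CPM or more, were Vps4b (Pearson r = 0.992, Spearman rho = 0.964), Hnrnpu (0.992, 0.964), Ranbp1 (0.992, 0.893), Marchf6 (0.990, 0.893) and Timm8b (0.989, 0.964). They were picked as the highest of all, so no p is given. Timm8b, a chaperone of mitochondrial import, had 18.0 CPM in pKO2 and 8.37 in WT2 against 47.3 to 59.7 in the other 5. Without pKO2 and WT2, over 5 libraries, r was 0.935, 0.937, 0.867, 0.866 and 0.964. Within the set Eif1 (0.984), Eif3m (0.967) and Eif4a1 (0.962) were closest, and without those 2 libraries r was 0.798 for Eif1, 0.959 for Eif3m and 0.047 for Eif4a1, so the last rests on them.

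Setting pKO beside WT addresses the effect of removing the Meteor promoter. By edgeR's quasi-likelihood test 0 of 56 factor genes had an adjusted p under 0.05 (all adjusted p = 1), and so did 0.0% of all 10265 features. At an unadjusted p under 0.05 it was 0 of 56 against 1.03% of features (106). The alternatives, DESeq2, limma-voom and a limma fit of log2(TPM + 1), called 0 features too. The 56 genes had a median log2 difference of 0.04 (31 higher, 25 lower), where all features had a median of 0.00. Differences ran from −0.66 to 0.96 with a median SE of 0.32.

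Eef1a1 averaged 3501 ± 2610 CPM in pKO and 2741 ± 2627 in WT (SD, n = 2 each), a log2 difference of 0.35 (SE 0.75). That sign was set by single libraries: it was −0.37 without WT2, −0.71 without pKO1, 1.99 without WT1 and 0.97 without pKO2. The smallest p belonged to Eif4a3, at 381 and 434 CPM in pKO and 473 and 817 in WT, a log2 difference of −0.66 (SE 0.32; edgeR, adjusted p = 1). Eif2b1 had the next smallest p and the largest positive difference (0.96, SE 0.68), at 4.76 and 3.68 CPM in pKO and 2.61 and 0.598 in WT, levels near the detection limit. At a mean of 5 CPM or more the next were Eif2b2, at 46.6 and 40.0 CPM in pKO and 63.0 and 51.4 in WT (−0.40, SE 0.29), and Eif2b5, at 132 and 153 against 164 and 193 (−0.32, SE 0.26). Eif1a was at 85.1 and 76.4 CPM in pKO and 71.6 and 55.6 in WT, and Eif2d at 11.9 and 11.8 against 9.70 and 6.58. In these 6 the groups did not overlap, but the genes were picked for a small p, which favours that. Over the 56, pKO lay wholly above WT for 4 (7.14%, background 12.0%) and wholly below it for 7 (12.5%, background 12.8%).

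For pInv against WT, 0 of 56 passed edgeR's test (all adjusted p = 1; 0.0% of features), and 0 of 56 had an unadjusted p under 0.05 against 1.48% of features (152). The 3 alternatives gave 0 features as well. The median log2 difference was 0.07 (34 higher, 22 lower; all features −0.01), and pInv, a lone library assumed to vary like the replicated groups, lay above both WT libraries for 15 (26.8%, background 29.0%) and below both for 11 (19.6%, background 27.9%). Eef2kmt, with 9.30 CPM in pInv against 19.4 and 14.9 in WT, had the smallest p (log2 difference −0.84, SE 0.44). Eif2b5 had 121 CPM in pInv against 164 and 193 in WT (−0.55, SE 0.33), and Eif2s3y, near the detection limit, had 1.69 against 5.60 and 3.59 (−1.11, SE 0.66). Eef1b2 stood higher, with pInv at 2290 CPM and the WT libraries at 1882 and 1355 (0.50, SE 0.35), as did Eif1b at 116 against 97.0 and 75.9 (0.41, SE 0.33). The Eef1a1 log2 difference was 0.33 (SE 0.91), with 3437 CPM in pInv between the WT libraries, and it was −0.42 without WT2 and 1.96 without WT1.

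For pInv against pKO the result was alike, 0 of 56 in edgeR's test (all adjusted p = 1; 0.0% of features) and 0 of 56 at an unadjusted p under 0.05, against 1.49% of features (153). The 3 alternatives gave 0 features. The median log2 difference was 0.08 (34 higher, 22 lower; all features 0.00). Here pInv lay above both pKO libraries for 23 genes (41.1%, background 34.2%) and below both for 11 (19.6%, background 31.5%). Eif2s3y, near the detection limit, was at 1.69 CPM in pInv and 7.61 and 4.90 in pKO (log2 difference −1.46, SE 0.67). Eif2d was at 5.49 against 11.9 and 11.8 (−1.0, SE 0.52). Eif1b was at 116 CPM in pInv and 78.0 and 71.9 in pKO (0.62, SE 0.33), Eif2b2 at 68.0 against 46.6 and 40.0 (0.64, SE 0.35), and Eef2kmt at 9.30 against 19.0 and 16.7 (−0.88, SE 0.44). The Eef1a1 log2 difference was −0.03 (SE 0.92), 1.03 without pKO1 and −0.64 without pKO2. Each group enters 2 of the 3 comparisons, so they are not independent.

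**Figure D3:**
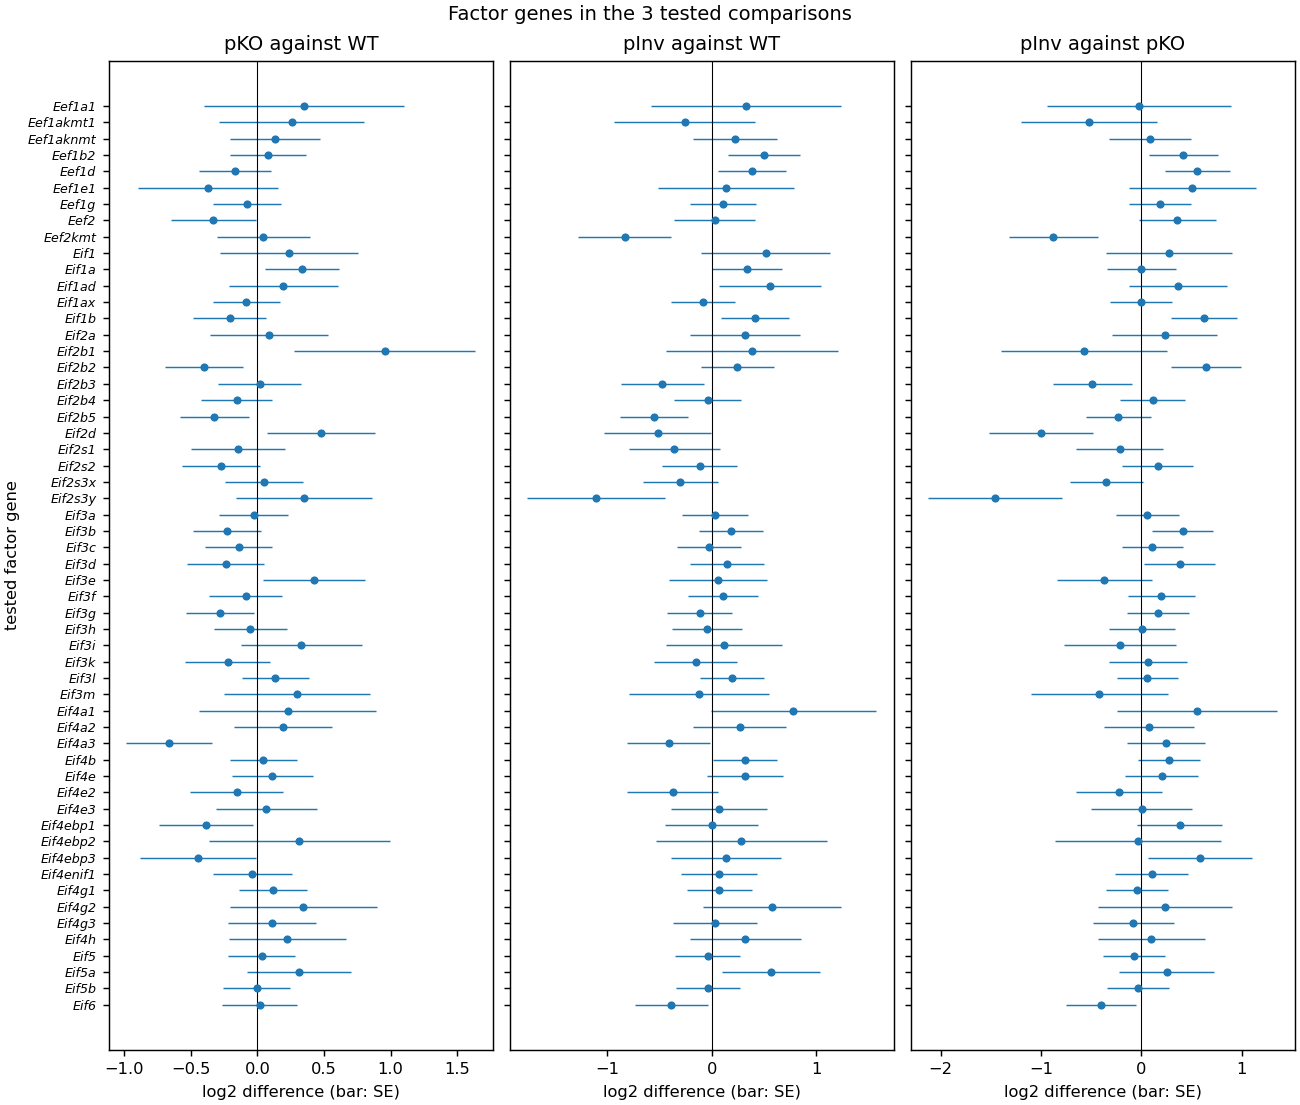
Points are log2 differences of the 56 tested factor genes in 3 comparisons (edgeR fit, bars are SE), with genes from top to bottom by name. Most lie within 1 SE of 0, the medians are 0.04, 0.07 and 0.08, and Eef1a1 carries an SE of 0.75 to 0.92.

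The knockdown and its control have 1 library each, so the difference has no replicate check. Of 47 factor genes at 20 CPM or more in KD or Ctrl, 0 lay 2-fold or more above Ctrl and 0 below, where 4.03% and 1.26% of 5083 features did. The median log2 ratio was −0.04 (20 higher, 27 lower), against −0.03 over all features. Counting intervals lay wholly above 1 for 6 of the 47 and wholly below 1 for 15, where those of all 5083 features did for 15.6% and 16.5%, shares that also depend on how many counts a gene has. Eif5a reached 453 CPM in KD against 280 in Ctrl, a ratio of 1.62 (exact 95% interval 1.46 to 1.80). Eif4g2 reached 1712 CPM in KD against 1092 in Ctrl, a ratio of 1.57 (1.49 to 1.65). Among the 7 libraries KD was highest in both genes, and WT2, pKO2 and Ctrl were the 3 lowest.

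Eif4enif1 had 75.3 CPM in KD against 54.6 in Ctrl (ratio 1.38, interval 1.08 to 1.78), while Eif4a1 stood at 947 and 733 (1.29, 1.21 to 1.38), Eif4h at 125 and 97.6 (1.285, 1.065 to 1.554) and Eef1a1 at 6061 and 4874 (1.24, 1.21 to 1.28). Eif2b4 had 127 CPM in KD against 167 in Ctrl (0.76, 0.645 to 0.894), the lowest ratio, while Eif3g stood at 129 and 167 (0.771, 0.655 to 0.907), Eif3b at 203 and 262 (0.774, 0.68 to 0.88), Eif4ebp2 at 68.9 and 89.0 (0.7745, 0.619 to 0.968) and Eif3c at 565 and 702 (0.805, 0.744 to 0.869). Of the genes named for this pair, some differed by more between the 2 WT libraries and some by less. By WT2 to WT1 ratio, Eef1a1 (0.192), Eif4a1 (0.240), Eif4ebp2 (0.244), Eif4g2 (0.278), Eif4h (0.377) and Eif5a (0.492) differed by more. Eif3b (1.045), Eif3c (1.098), Eif3g (1.129), Eif4enif1 (1.282) and Eif2b4 (1.294) differed by less. The macrophage markers at 258 CPM in KD and 1.52 in Ctrl move with every KD ratio, and their part in these ratios was not tested.

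**Figure D4:**
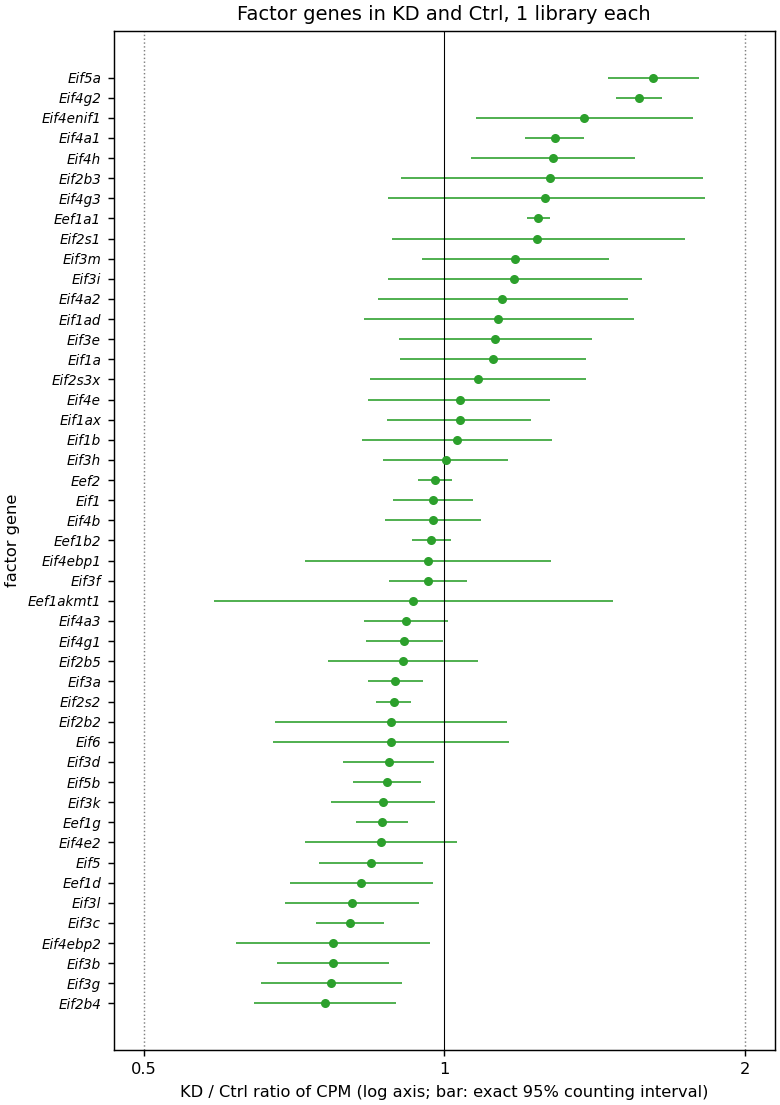
Points are KD to Ctrl ratios of CPM on a log axis for the 47 factor genes at 20 CPM or more in either library, with exact 95% counting intervals, ordered by ratio. All lie between 0.76 (Eif2b4) and 1.62 (Eif5a), inside the dotted lines at 0.5 and 2.

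Genes around the factors were counted from 8 lists. No listed gene passed edgeR's test in the 3 tested comparisons. Of genes at 20 CPM or more, those 2-fold low in WT2 (background 9.76%) were 0 of 5 for termination and recycling, 0 of 9 for poly(A)-binding proteins and partners, 0 of 1 for eIF2 and eEF2 kinases, 1 of 7 for integrated stress response targets, 0 of 6 for the mTORC1 pathway, 1 of 5 for other mRNAs with an oligopyrimidine tract, 0 of 22 for cytosolic tRNA synthetases and 0 of 3 for mitochondrial translation factors. The 2 low genes were Ddit4, an inhibitor of mTORC1, and Vim, an intermediate filament. Ddit4 had 101 CPM in pInv, 92.7 and 63.3 in pKO, 176 and 40.6 in WT, 141 in KD and 68.2 in Ctrl. In the oligopyrimidine list, Rack1, a ribosomal scaffold, was highest in WT2 at 5668 CPM against 3242 to 3967 elsewhere, and Tpt1 was lowest there at 2420 against 2899 to 3745. Farsa, a subunit of phenylalanyl-tRNA synthetase, was at 1080 CPM in pInv and 1210 in WT2 but 422 to 563 in the other 5. Median log2 differences over the lists, in the order given, were −0.19, 0.10, −0.08, −0.34, −0.21, 0.29, −0.15 and −0.16 for pKO against WT. They were 0.02, −0.29, −0.27, −0.07, −0.04, −0.17, 0.06 and −0.02 for pInv against WT, and 0.22, −0.15, −0.20, 0.19, 0.22, −0.21, 0.08 and 0.19 for pInv against pKO, so most lists differ in sign between comparisons. For KD against Ctrl, 2 of 8 stress response targets (Ddit4, 141 CPM in KD and 68.2 in Ctrl, and the cystine transporter Slc7a11, 20.2 and 1.52) and 1 of 5 oligopyrimidine mRNAs (Vim, 64.3 CPM in KD and 22.7 in Ctrl) were 2-fold up, against 4.03% of all features, and no gene of the other 6 lists passed 2-fold either way (1.26% of features were 2-fold down).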

How the data were processed

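The authors deposited gene tables of expected counts and TPM for 7 libraries, made with RSEM on mm9 per the submitters' processing notes. The sources used here give neither filters nor strand setting. The deposited expected counts were rounded, scaled by TMM and tested with edgeR 4.0.16 (R 4.3.3; quasi-likelihood test, filter on low counts by group, prior count 2 for log2 differences) in 1 fit of all libraries over 10265 features, with Benjamini-Hochberg adjustment and a threshold of 0.05. That fit has 2 residual degrees of freedom, from WT and pKO. SEs were derived from the test statistic. The authors' TPM entered only levels per length and alternatives, among them limma 3.58.1 on log2(TPM + 1). A row taken, by its transcript ID, as the ribosomal RNA precursor made up 12.9% to 24.1% of the totals. KD and Ctrl were compared by ratio at 20 CPM or more in either. Promoters came from RefSeq (GRCm38.p6), and no coordinates were converted. The script was tested on simulated data.

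Named genes were the elongation factors, the extremes of each class, the 5 smallest p per tested comparison at a mean of 5 CPM or more, and the 5 most extreme KD to Ctrl ratios each way, and any gene named beyond these was picked with its values in view. Members and lists were chosen with earlier results of these data known. DESeq2 1.42.0 and limma-voom were alternatives.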

Additional observations from a re-analysis of the deposited data

How the results depend on the processing

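No factor gene was called in any of the 3 tested comparisons under any alternative run, and of 182 recomputed values 159 stayed on their side of the threshold or within the replicate spread. These 159 include counts of called genes that stayed at 0. They also include Eef1a1 differences in the tested comparisons that kept their sign, whatever their size. For pKO against WT, that difference was 0.35 in the main fit and 1.99 without WT1. Among the 159, 7 medians of the factor genes near 0 changed sign. They were −0.0036 (genotype field), −0.045 (without WT2), −0.049 (without pKO1) and −0.019 (without pKO2) for pKO against WT, −0.016 for pInv against pKO (genotype field), and 0.0027 (totals without the ribosomal precursor) and 0.025 (log2(TPM + 1)) for KD against Ctrl. Without a filter on low counts, the calls were 9 features between pKO and WT, 6 between pInv and WT and 8 between pInv and pKO. With groups from the genotype field, 7 features were called for pInv against WT and the median of the factor genes was −0.037. Leaving out 1 library, features called ran from 0 to 7 for pKO against WT and from 0 to 7 for pInv against pKO. With the replicate number as a block, 1 feature was called for pInv against WT, and the WT and pKO differences between numbers correlated at 0.311 over features, which with 2 pairs does not show that the numbers pair the libraries. The causes of these changes were not tested. Across the alternatives, 10 to 12 factor genes were low in WT2 and 3 to 4 in pKO2.

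The Eef1a1 log2 difference ran from −0.71 to 1.99 between pKO and WT, from −0.42 to 1.96 between pInv and WT and from −0.64 to 1.03 between pInv and pKO when 1 library was left out. It was −0.26 for pInv against WT under the replicate block. For pInv against pKO it was −0.82 under the replicate block, 0.21 with limma-voom, 0.14 with limma on log2(TPM + 1) and 0.96 with groups from the genotype field. For KD against Ctrl, a minimum of 5 CPM put 1 factor gene (Eif4e3, 31 counts in KD and 14 in Ctrl) and 1335 features past 2-fold, against 269 features at 20 CPM. Totals without the ribosomal precursor gave 405 features and an Eef1a1 log2 ratio of 0.36, and log2(TPM + 1) gave 0.38, against 0.31. Genes near 1 CPM lie at the limit that a count of 0 allows in these libraries.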
